A study of Mus musculus with 15 samples.

Results

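The genes described here belong to bone morphogenetic protein (BMP) signalling. They are the ligand genes *Bmp2*, *Bmp4*, *Bmp6* and *Bmp7*, the genes *Id1*, *Id2*, *Id3* and *Id4*, and the inhibitory Smad genes *Smad6* and *Smad7*. They were taken by name, and all 10 were found among the 17454 genes of the deposited table. BMP ligands are secreted proteins that bind pairs of receptor kinases, which phosphorylate Smad proteins that enter the nucleus with Smad4 and switch on target genes. Id genes are classic targets of these Smads, and their proteins bind basic helix-loop-helix (bHLH) factors and keep them off DNA. The inhibitory Smads are also induced by the pathway and dampen it, and BMP4 is known for its part in forming the mesoderm from which yolk sac blood arises.

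The libraries came from erythro-myeloid progenitors (EMPs), blood progenitors of the yolk sac, sorted from C57BL/6 mouse embryos at E10.5, in mid-gestation. All embryos had both *Ezh2* alleles floxed (Ezh2fl/fl), and Ezh2 is the enzyme of polycomb repressive complex 2 that methylates histone H3 at lysine 27. The 5 Tie2-Ezh2-KO libraries carried the transgene Tie2-CreTg/+ and the 3 Tie2-Ezh2-WT libraries had no Tie2-Cre, while the 5 Vav-Ezh2-KO libraries carried Vav-CreTg/+ and the 2 Vav-Ezh2-WT libraries had no Vav-Cre. Each of the 15 libraries came from 1 yolk sac, so the spread between libraries is a spread between yolk sacs. Tie2-Cre acts in endothelium and so in the cells from which EMPs emerge, and Vav-Cre (the line Vav-iCre) acts from the onset of the hematopoietic stage. The samples' labels give 500 cells per library, and the study's methods give a different number. Levels are in RPKM, reads scaled to the length of the transcript and to the reads on genes of the library. The libraries held 10407398 to 41025074 reads on genes, so that 1 read on a transcript of 2 kb was worth between 0.0122 and 0.0480 RPKM.

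The targeted gene was read first. *Ezh2* was at 36.9, 39.5 and 30.1 RPKM in Tie2-Ezh2-WT replicates 4, 10 and 12 and at 42.0 and 41.5 RPKM in Vav-Ezh2-WT replicates 4 and 6. Tie2-Ezh2-KO replicates 7, 9, 11, 13 and 17 had 27.8, 26.2, 24.8, 29.5 and 26.5 RPKM, and Vav-Ezh2-KO replicates 1, 9, 10, 26 and 28 had 33.7, 42.4, 37.8, 38.1 and 34.0 RPKM. No Tie2-Ezh2-KO library reached the lowest WT value, while the libraries labelled Vav-Ezh2-KO were spread among WT. These values cover the whole gene and do not separate the deleted part, so they do not check the labels. The difference between Tie2-Ezh2-KO and WT was -0.48 (SE 0.12) on the log2(RPKM + 0.2) scale with an adjusted p of 0.0418 in limma. This call was lost without Tie2-Ezh2-WT replicate 4 or 10, Vav-Ezh2-WT replicate 4 or 6 or Tie2-Ezh2-KO replicate 7, 11 or 17 (adjusted p of 0.0760 to 0.126). It was also lost with eBayes without trend (0.0923), a common median (0.0920), limma-voom on recovered reads (0.0817), the pair of libraries high in visceral endoderm genes (described below) left out (0.137) and the corresponding Tie2-Ezh2-WT libraries alone as the control (0.344), within a range of adjusted p of 0.0160 to 0.344 over all alternatives in limma. The difference itself stayed between -0.56 and -0.39, and it was -0.50 without the pair.

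All 10 marker genes of EMPs were above 0.2 RPKM in all 15 libraries. *Kit*, the gene of a receptor used in the sort, had a mean of 28.6 RPKM in WT, 28.0 RPKM in Tie2-Ezh2-KO and 25.2 RPKM in Vav-Ezh2-KO libraries. The most abundant marker was *Gata1*, an erythroid and megakaryocytic transcription factor, at a mean of 177 RPKM, and the summed level of the list ran from 390 to 662 RPKM. In Tie2-Ezh2-KO against WT, 8 of the 10 genes had a negative difference, with a median of -0.21 over the list, and none passed the threshold in limma, with 3 at an unadjusted p under 0.05. Among the lower means were those of *Fcgr3* (89.4 against 124 RPKM), the gene of a receptor used in the sort, *Fcgr2b* (5.60 against 9.07 RPKM), *Ptprc* (6.53 against 10.52 RPKM) and *Tal1* (11.98 against 15.03 RPKM). Marker lists of other cells of the yolk sac were read as well, since a sort can carry some of them along. In bulk samples, fewer cells of a type and less RNA per cell cannot be told apart.

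A pair of libraries stood apart by the summed level of genes of the visceral endoderm, the outer epithelium of the yolk sac. The summed level of these 10 genes was 174 RPKM in Tie2-Ezh2-WT replicate 4 and 245 RPKM in Tie2-Ezh2-KO replicate 7, and between 1.995 and 14.9 RPKM in the other 13 libraries. The most abundant of them was *Apoa1*, an apolipoprotein gene, with 47.6 RPKM in that WT library and 71.7 RPKM in that Tie2-Ezh2-KO library, while *Hnf4a* and *Apob* stayed at or below 0.2 RPKM in every library. All 8 genes of the list that were tested had a positive difference in Tie2-Ezh2-KO against WT, in a fit that held this pair. *Foxa2*, 1 of the 8, was read in 1 Tie2-Ezh2-KO library only, so its direction was fixed by the filter. Of the 8 genes, 1 passed the threshold. This was *Amn*, which encodes a partner of the receptor cubilin, at 4.66, 1.67, 1.52, 2.08 and 2.21 RPKM in replicates 7, 9, 11, 13 and 17 of Tie2-Ezh2-KO, at no more than 0.798 RPKM in WT and at no more than 0.176 RPKM in Vav-Ezh2-KO. So *Amn*, like *Bmp4*, was above every WT library in every Tie2-Ezh2-KO library. The results of *Ezh2*, *Bmp4*, *Bmp7*, *Bmp2*, *Id2* and *Fstl3* against WT and the interaction of *Msx2* are given with and without 1 or both libraries of the pair.

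The list of primitive erythroid genes separated Tie2-Ezh2-KO from the rest. Its 5 genes summed to 318, 590, 864, 199.6 and 291 RPKM across the Tie2-Ezh2-KO group (replicates 7, 9, 11, 13 and 17). They summed to 71.9 to 151 RPKM in the 5 WT libraries and to 65.7 to 159 RPKM in the 5 Vav-Ezh2-KO libraries. All 5 genes were above 0 in every library, and the most abundant was *Hbb-bh1*, an embryonic beta-like globin gene, at a mean of 274 RPKM in Tie2-Ezh2-KO, 114 RPKM in WT and 108 RPKM in Vav-Ezh2-KO libraries. *Hba-x*, an embryonic alpha-like globin gene, was at 32.9 to 339 RPKM in Tie2-Ezh2-KO, at 0.316 to 2.67 RPKM in WT and at 0.697 to 8.51 RPKM in Vav-Ezh2-KO libraries. The sums of the other lists overlapped between the groups. The 9 endothelial genes found in the table summed to 27.3 to 60.4 RPKM, with *Pecam1*, an adhesion molecule that platelets also carry, the most abundant at a mean of 16.7 RPKM, and the endothelial cadherin gene *Cdh5* at no more than 0.349 RPKM. Single genes moved in opposite directions within this sum: *Pecam1* was lower in every Tie2-Ezh2-KO library than in every WT library (means of 11.98 and 18.2 RPKM, adjusted p = 0.150 in limma), while 7 of the 9 genes had a positive difference. The 10 mesenchymal genes summed to 1.49 to 3.68 RPKM, led by *Pdgfrb* at a mean of 1.14 RPKM, and *Col1a1*, *Col1a2*, *Col3a1* and *Pdgfra* stayed at or below 0.2 RPKM. The 8 macrophage genes summed to 65.1 to 158 RPKM, led by the lysozyme gene *Lyz2* at a mean of 79.3 RPKM, and *C1qa* was at 0 in every library. *Lyz2* is also expressed by myeloid progenitors.

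Among the ligands, *Bmp4* was higher in Tie2-Ezh2-KO EMPs, and the other ligands of the set were read in Tie2-Ezh2-KO libraries only. *Bmp4* lies on chromosome 14 of GRCm38 from 46383525 to 46390669. In WT it was at 0.530, 0.381 and 0.293 RPKM in Tie2-Ezh2-WT replicates 4, 10 and 12 and at 0 and 0.0503 RPKM in Vav-Ezh2-WT replicates 4 and 6. Tie2-Ezh2-KO replicates 7, 9, 11, 13 and 17 had 3.21, 5.94, 4.06, 0.879 and 4.52 RPKM. Vav-Ezh2-KO replicates 1, 9, 10, 26 and 28 had 0, 1.36, 0.417, 1.13 and 0.122 RPKM. All 5 Tie2-Ezh2-KO libraries lay above all WT libraries, and 4 of them lay above all Vav-Ezh2-KO libraries, with replicate 13 inside the Vav-Ezh2-KO range. These levels rest on 47 to 181 reads per library in Tie2-Ezh2-KO, on 0 to 24 reads in WT and on 0 to 50 reads in Vav-Ezh2-KO.

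**Figure D1:**
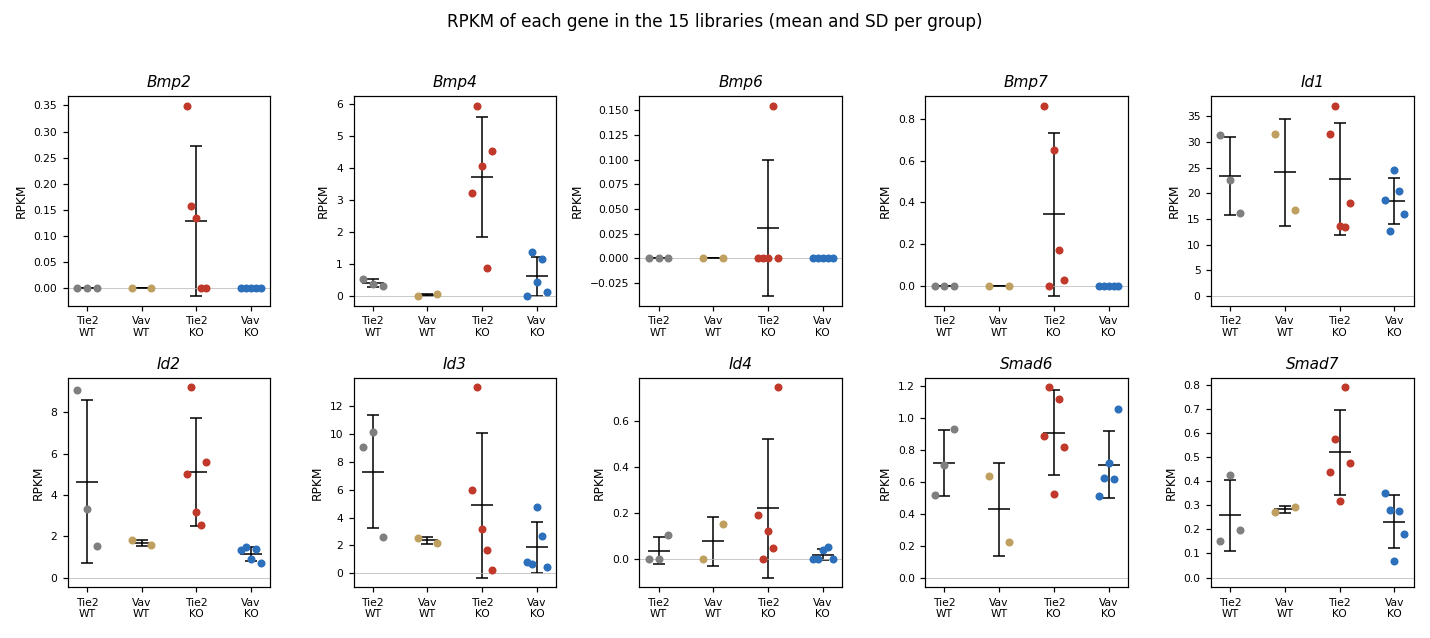
RPKM of each of the 10 genes on a linear axis in the 15 libraries, by group, with points for single libraries and bars for the mean and SD (n = 3, 2, 5 and 5 from left to right). *Bmp4* is between 0.879 and 5.94 RPKM in Tie2-Ezh2-KO and at most 0.530 RPKM in WT, and *Id2* in Tie2-Ezh2-KO lies above every Vav-Ezh2-KO library.

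The mean of *Bmp4* was 3.72 ± 1.87 RPKM (SD, n = 5) in Tie2-Ezh2-KO, 0.251 ± 0.223 RPKM (SD, n = 5) in WT and 0.607 ± 0.609 RPKM (SD, n = 5) in Vav-Ezh2-KO. In Tie2-Ezh2-KO the mean was 14.8-fold that in WT and 9.27-fold that in Tie2-Ezh2-WT alone, since *Bmp4* was lower in Vav-Ezh2-WT. In Vav-Ezh2-KO the mean was 24.1-fold that in Vav-Ezh2-WT, where *Bmp4* had 2 reads in all. From pooled reads this ratio was 16.3 (95% exact Clopper-Pearson interval of counting error 4.39 to 136). That interval treats the 97 Vav-Ezh2-KO reads as independent and leaves out the spread between yolk sacs, which held 0 to 50 reads each. The test across libraries, given below, did not pass the threshold. Differences were tested with limma on log2(RPKM + 0.2), a scale that understates the change of low genes, with p-values adjusted over all genes tested and a threshold of 0.05. *Bmp4* rose by 3.08 (SE 0.48) in Tie2-Ezh2-KO against WT, with an adjusted p of 0.00216. It was the only one of the 9 genes of the set tested in that comparison to pass the threshold, while 2.73% of all 14154 genes tested passed it. It was also the only one with every Tie2-Ezh2-KO library above every WT library, as 3.29% of genes tested were, and none of the 9 had every Tie2-Ezh2-KO library below every WT library, as 0.714% of genes were.

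Without the pair of libraries high in visceral endoderm genes (a setting chosen after seeing the data), the difference of *Bmp4* was 3.30 (adjusted p = 0.00904, within a range of 0.000337 to 0.0434 over all alternatives that tested it). The summed primitive erythroid list, like *Bmp4*, was above every WT library in every Tie2-Ezh2-KO library. Replicate 13 had the lowest *Bmp4* and the lowest sum of that group, but the highest *Bmp4* was in replicate 9 and the highest sum in replicate 11. The sort took lineage-negative cells, and the study's antibodies include TER119, which marks erythroid cells. The part of primitive erythroid or visceral endoderm RNA in the *Bmp4* result was not tested.

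In Vav-Ezh2-KO against WT, the difference of *Bmp4* was 0.60 (SE 0.55) with an adjusted p of 0.815 in limma. It was 1.44 with Vav-Ezh2-WT alone as the control. With 1 library left out it ran from 0.26 (without Vav-Ezh2-KO replicate 9) to 0.997 (without Vav-Ezh2-KO replicate 1). The adjusted p in limma ran from 0.683 to 0.973 over all alternatives that tested it. The comparison shares its 5 WT libraries with the one of Tie2-Ezh2-KO. Of the set, 6 genes passed the filter on low values there and none passed the threshold, which 1 of 13646 genes tested did (0.00733%). At an unadjusted p under 0.05, 2 of the 6 and 1082 of all genes tested were counted, and limma-voom on recovered reads also called none of the 6. Between the knockouts directly, with no shared library, *Bmp4* was higher in Tie2-Ezh2-KO by 2.48 (SE 0.58) with an adjusted p of 0.0265 in limma. Of the 9 genes of the set tested there, 2 passed the threshold, *Bmp4* and *Id2*, while 3.51% of all 14120 genes did. The call of *Bmp4* between the knockouts was lost when Tie2-Ezh2-KO replicate 7, 11 or 17 or Vav-Ezh2-KO replicate 1, 10 or 28 was left out, with adjusted p-values up to 0.0797, and the difference then stayed between 2.08 and 2.49. It was also lost with no filter (2.48, adjusted p = 0.0738), with eBayes without trend (2.48, adjusted p = 0.0638) and in limma-voom on recovered reads (3.88, adjusted p = 0.0790), within a range of 0.00829 to 0.0797 over all alternatives.

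The difference between the effects of the deletions, each against its own WT, was taken as the interaction in a fit of all 15. *Bmp4* had an interaction of 1.08 (SE 0.94) with an adjusted p of 0.978 in limma. None of the 9 genes of the set tested passed the threshold in this test, and 0.181% of all 14394 genes tested did. At an unadjusted p under 0.05 none of the 9 was counted, and 942 of all genes were, and limma-voom called none of the 9 either. The effects of the deletions on *Bmp4* were therefore not shown to differ from each other by this test.

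*Bmp7* and *Bmp2*, ligands that often form dimers with each other, had no read in any WT or Vav-Ezh2-KO library. *Bmp7* lies on chromosome 2 from 172868012 to 172940321 and was at 0.861, 0, 0.652, 0.171 and 0.0316 RPKM across the Tie2-Ezh2-KO group (replicates 7, 9, 11, 13 and 17). *Bmp2*, on the same chromosome from 133552159 to 133562896, was at 0.349, 0.156, 0.134, 0 and 0 RPKM in the same order. So *Bmp7* was read in 4 and *Bmp2* in 3 of the 5 Tie2-Ezh2-KO libraries, and replicates 7 and 11 had both. Over the 5 WT libraries together, 0 reads allow up to 0.0149 RPKM of *Bmp7* and 0.0117 RPKM of *Bmp2*, the level of 3 reads. The level of the pooled Tie2-Ezh2-KO reads (56 of *Bmp7* and 25 of *Bmp2*) was 21.4-fold this limit for *Bmp7* and 9.56-fold for *Bmp2*. Without Tie2-Ezh2-KO replicate 7, high in visceral endoderm genes, these became 13.5-fold and 5.13-fold. Without Tie2-Ezh2-WT replicate 12, the library with the most reads, they were 12.8-fold and 5.72-fold. With both libraries high in visceral endoderm genes left out they were 12.1-fold and 4.60-fold. Limits of this kind cover counting error in WT only. The Tie2-Ezh2-KO reads were pooled over libraries with 0 to 27 reads of *Bmp7* and 0 to 14 of *Bmp2*. The folds are therefore not lower bounds. Neither gene passed limma's threshold in Tie2-Ezh2-KO against WT, where *Bmp7* had a difference of 1.12 (SE 0.42, adjusted p = 0.266) and *Bmp2* one of 0.61 (SE 0.30, adjusted p = 0.496). Without the pair of libraries high in visceral endoderm genes, *Bmp7* had a difference of 0.80 (adjusted p = 0.596), and *Bmp2* was below the filter. The adjusted p of *Bmp7* in limma ran from 0.0937 to 0.645 over all alternatives that tested it. Both passed the filter of 0.2 RPKM through Tie2-Ezh2-KO libraries alone and had no read in WT, so their direction was fixed.

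*Bmp6*, a ligand known as a regulator of iron balance, lies on chromosome 13 from 38345716 to 38500314. It was read in 1 library, Tie2-Ezh2-KO replicate 13, at 0.155 RPKM, and was below the filter in every comparison. Summed over the 4 ligands, the level was 4.42, 6.10, 4.85, 1.20 and 4.55 RPKM across the Tie2-Ezh2-KO group (replicates 7, 9, 11, 13 and 17), with a mean of 4.22 ± 1.81 RPKM (SD, n = 5). The same sum was 0.251 ± 0.223 RPKM (SD, n = 5) in WT and 0.607 ± 0.609 RPKM (SD, n = 5) in Vav-Ezh2-KO, where all of it was *Bmp4*.

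The targets were led by *Id1*, which lies on chromosome 2 from 152736251 to 152737410 and had the highest level of the 10 genes. *Id1* was at 31.3, 22.6 and 16.1 RPKM in Tie2-Ezh2-WT replicates 4, 10 and 12 and at 31.5 and 16.7 RPKM in Vav-Ezh2-WT replicates 4 and 6. Tie2-Ezh2-KO replicates 7, 9, 11, 13 and 17 had 31.6, 37.1, 13.6, 13.5 and 18.1 RPKM, and Vav-Ezh2-KO replicates 1, 9, 10, 26 and 28 had 18.7, 12.7, 24.6, 20.4 and 15.9 RPKM. The groups overlapped, and the spread within each group was wide. The difference was -0.12 (SE 0.29) in Tie2-Ezh2-KO against WT and -0.33 (SE 0.21) in Vav-Ezh2-KO against WT, with adjusted p-values of 0.957 and 0.715 in limma. The sign in Tie2-Ezh2-KO changed when replicate 11 or 13 was left out.

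*Id2*, whose protein is known for its part in the choice between lymphoid and innate fates, lies on chromosome 12 from 25093799 to 25096092. It was at 9.06, 3.33 and 1.53 RPKM in Tie2-Ezh2-WT replicates 4, 10 and 12 and at 1.80 and 1.58 RPKM in Vav-Ezh2-WT replicates 4 and 6. Tie2-Ezh2-KO replicates 7, 9, 11, 13 and 17 had 5.03, 9.21, 3.18, 2.52 and 5.57 RPKM. Vav-Ezh2-KO replicates 1, 9, 10, 26 and 28 had 1.34, 1.49, 0.886, 1.37 and 0.712 RPKM. The knockouts did not overlap: all 5 Tie2-Ezh2-KO libraries were above all 5 Vav-Ezh2-KO libraries, as 3.56% of genes tested were, and the reverse, which no gene of the set showed, held for 1.67% of genes. WT libraries overlapped with Tie2-Ezh2-KO and had up to 9.06 RPKM, in Tie2-Ezh2-WT replicate 4, which was also high in visceral endoderm genes.

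*Id2* was higher in Tie2-Ezh2-KO than in Vav-Ezh2-KO by 1.87 (SE 0.33), with means of 5.10 ± 2.62 and 1.16 ± 0.339 RPKM (SD, n = 5 each), and the adjusted p in limma was 0.00499. It stayed past the threshold in all 10 fits with 1 library left out, with differences of 1.63 to 2.07, and under all 8 other alternatives. The WT groups differed in the same direction, with means of 4.64 RPKM in Tie2-Ezh2-WT and 1.69 RPKM in Vav-Ezh2-WT. Relative to its own WT, the mean was 1.10-fold in Tie2-Ezh2-KO and 0.688-fold in Vav-Ezh2-KO. Between the knockouts, 7871 of all 14120 genes tested had a positive difference. So did 8 of 8 visceral endoderm genes (median 1.71, 1 past the threshold) and 5 of 5 primitive erythroid genes (median 1.29, 2 past it). *Amn*, *Cubn* and *Foxa2* were below the filter in every Vav-Ezh2-KO library, which favoured a positive difference. Positive differences were also held by 7 of 9 endothelial genes (median 0.52, 0 past it) and 5 of 6 mesenchymal genes. EMP markers (2 of 10 positive) and macrophage genes (1 of 7) mostly went the other way. The part of RNA of other cells in the *Id2* and *Bmp4* differences between the knockouts was not tested. Against WT, whose mean was 3.46 ± 3.22 RPKM (SD, n = 5), *Id2* passed the threshold in neither knockout. Its difference was 0.74 (SE 0.45, adjusted p = 0.671) in Tie2-Ezh2-KO and -1.13 (SE 0.41, adjusted p = 0.544) in Vav-Ezh2-KO, in limma. Every Vav-Ezh2-KO library was lower than every WT library, which held for 0.806% of genes tested, by a margin of 1.49 against 1.53 RPKM, and none of the set's 6 tested genes had every Vav-Ezh2-KO library above every WT library, as 0.601% of genes did. Without Tie2-Ezh2-WT replicate 4, the differences were 1.16 in Tie2-Ezh2-KO and -0.71 in Vav-Ezh2-KO, with adjusted p-values of 0.147 and 0.812. The interaction of *Id2* was 0.84 (SE 0.70, adjusted p = 0.974), and it was 1.47 without that library (adjusted p = 0.686) and 1.44 without the pair high in visceral endoderm genes (adjusted p = 0.795), within a range of adjusted p of 0.686 to 0.9999 over all alternatives.

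*Id3*, known beside *Id1* for its part in vessel growth, lies on chromosome 4 from 136143822 to 136145392. It was at 9.07, 10.1 and 2.63 RPKM in Tie2-Ezh2-WT replicates 4, 10 and 12 and at 2.54 and 2.21 RPKM in Vav-Ezh2-WT replicates 4 and 6. Tie2-Ezh2-KO replicates 7, 9, 11, 13 and 17 had 5.99, 13.3, 3.19, 1.64 and 0.261 RPKM, and Vav-Ezh2-KO replicates 1, 9, 10, 26 and 28 had 0.817, 0.684, 4.73, 2.64 and 0.439 RPKM. Both knockouts overlapped with WT and with each other, and the Tie2-Ezh2-KO libraries alone ran from 0.261 to 13.3 RPKM. The differences were -0.58 (SE 0.73) in Tie2-Ezh2-KO and -1.56 (SE 0.57) in Vav-Ezh2-KO against WT, with adjusted p-values of 0.898 and 0.544 in limma. Leaving out Tie2-Ezh2-KO replicate 17 turned the first to 0.10.

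*Id4*, on chromosome 13 from 48261116 to 48266028 and known mostly from neural tissue, was read in 8 of the 15 libraries. It was at 0.189, 0, 0.122, 0.0449 and 0.749 RPKM across the Tie2-Ezh2-KO group (replicates 7, 9, 11, 13 and 17), and at no more than 0.151 RPKM in any other library. It passed the filter through replicate 17 alone and had an adjusted p of 0.750 in Tie2-Ezh2-KO against WT in limma.

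The summed level of the Id genes was 32.4 ± 12.2 RPKM (SD, n = 5) in WT, 33.0 ± 17.8 RPKM (SD, n = 5) in Tie2-Ezh2-KO and 21.5 ± 6.10 RPKM (SD, n = 5) in Vav-Ezh2-KO. *Id1* made up 62.2% to 76.3% of this sum in Tie2-Ezh2-KO and 81.3% to 93.3% in Vav-Ezh2-KO libraries, so these shares did not overlap. In Tie2-Ezh2-WT the share was 62.7% to 79.0%, and in Vav-Ezh2-WT it was 80.9% and 87.9%. Tie2-Ezh2-KO replicate 9 had the highest *Id1*, *Id2*, *Id3* and *Bmp4* of all libraries, and its sum of Id genes, 59.6 RPKM, was the highest of the 15.

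The inhibitory Smads were low in every library. *Smad6*, on chromosome 9 from 63953076 to 64022085, encodes the inhibitory Smad that acts mainly on BMP receptors. It averaged 0.600 ± 0.260 RPKM (SD, n = 5) in WT, 0.906 ± 0.265 RPKM (SD, n = 5) in Tie2-Ezh2-KO and 0.704 ± 0.209 RPKM (SD, n = 5) in Vav-Ezh2-KO, and single libraries ran from 0.219 to 1.19 RPKM. The groups overlapped, and 2 of 5 Tie2-Ezh2-KO libraries were above all WT libraries. The difference was 0.50 (SE 0.32, adjusted p = 0.702) in Tie2-Ezh2-KO and 0.22 (SE 0.30, adjusted p = 0.871) in Vav-Ezh2-KO against WT, in limma.

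*Smad7*, on chromosome 18 from 75367365 to 75395935, encodes an inhibitor of both BMP and TGF-beta receptors. It was at 0.438, 0.575, 0.319, 0.789 and 0.476 RPKM across the Tie2-Ezh2-KO group (replicates 7, 9, 11, 13 and 17). It was at 0.151 to 0.427 RPKM in WT and at 0.0668 to 0.351 RPKM in Vav-Ezh2-KO libraries. Thus 4 of 5 Tie2-Ezh2-KO libraries were above all WT libraries, and replicate 13, lowest of its group in *Bmp4*, was the highest in *Smad7*. The difference did not pass limma's threshold: it was 0.61 (SE 0.28, adjusted p = 0.435) against WT, and 0.75 (SE 0.29, adjusted p = 0.195) against Vav-Ezh2-KO. In Vav-Ezh2-KO against WT it was -0.14 (SE 0.28, adjusted p = 0.923).

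**Figure D2:**
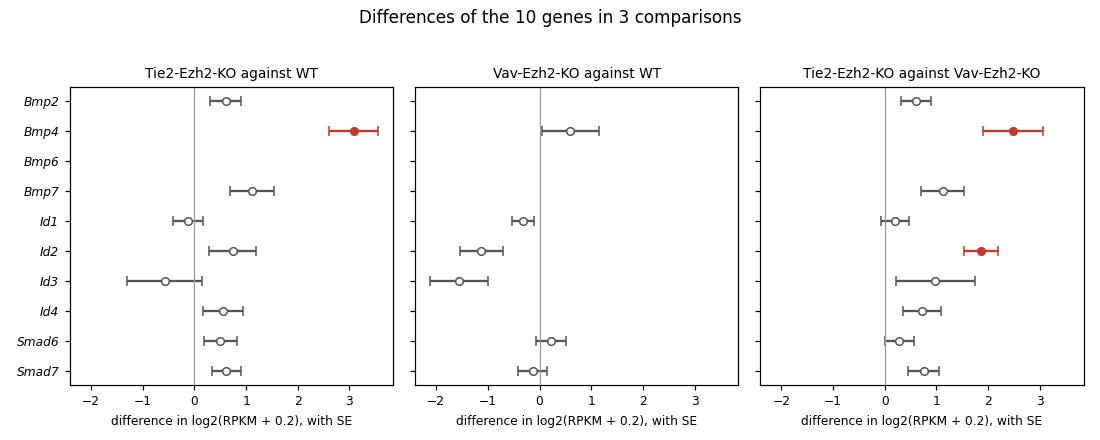
Difference in mean log2(RPKM + 0.2) of each of the 10 genes in the 3 comparisons, with points for limma's estimate and bars for its SE. Filled red points passed the adjusted threshold of 0.05, which *Bmp4* did in Tie2-Ezh2-KO against WT (3.08) and *Bmp4* (2.48) and *Id2* (1.87) between the knockouts, and a gene without a point was below the filter.

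Ordered by mean RPKM over the 15 libraries, the genes were *Id1* (21.6), *Id3* (4.02), *Id2* (3.24), *Bmp4* (1.53), *Smad6* (0.737), *Smad7* (0.339), *Bmp7* (0.114), *Id4* (0.0964), *Bmp2* (0.0426) and *Bmp6* (0.0103). The groups differ in this order: in WT the mean of *Bmp4*, 0.251 RPKM, was below those of *Smad6* (0.600 RPKM) and *Smad7* (0.268 RPKM). *Id1* was above *Id3* in 15 of 15 libraries. *Id3* and *Id2* did not differ beyond their spread, with *Id3* higher in 10 of 15 libraries, and neither did *Bmp4* and *Smad6*, with *Bmp4* higher in 7 of 15. *Smad6* was above *Smad7* in 14 of 15 libraries, and the genes from *Bmp7* down did not differ from their neighbours beyond their spread.

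For the 6 genes of the set that passed the filter in all 3 comparisons, the median difference was 0.56 in Tie2-Ezh2-KO against WT, -0.23 in Vav-Ezh2-KO against WT and 0.87 between the knockouts. The medians over all genes tested were 0.01, -0.02 and 0.04. The other genes that passed the filter, *Bmp2*, *Bmp7* and *Id4*, did so through Tie2-Ezh2-KO libraries alone.

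Other genes of the pathway and of related ones were read from a list of 70 ligands, receptors, Smads, inhibitors, targets, bHLH partners and a protease. Of these, 55 were in the table. Beside BMP genes, the list holds genes of TGF-beta and activin signalling, such as *Tgfb1*, *Tgfbr1* and *Smad2*, so its shares are not those of BMP genes alone. In Tie2-Ezh2-KO against WT, 1 of 42 tested passed the threshold, upward, beside 2.73% of all genes tested, and 7 of 42 (16.7%) were at an unadjusted p under 0.05, beside 10.97% of all genes. In Vav-Ezh2-KO against WT none of 37 passed it in limma, with none at an unadjusted p under 0.05 either, beside 0.00733% and 7.93% of all genes tested. Between the knockouts 2 of 40 passed it, both higher in Tie2-Ezh2-KO, beside 3.51% of all genes, and 9 of 40 (22.5%) were at an unadjusted p under 0.05, beside 16.6% of all genes. The median difference over the genes tested was 0.16 (42 genes), -0.02 (37 genes) and 0.13 (40 genes) in these comparisons. These sets differ: *Msx2* and *Bmp8b*, for example, passed the filter through Tie2-Ezh2-KO libraries alone, which favoured a positive difference. The medians therefore cannot be compared with each other.

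The gene that passed in both was *Msx2*, a homeobox gene that BMP signals induce in many tissues, on chromosome 13 from 53466881 to 53472780. *Msx2* was at 1.68, 0.938, 1.44, 0.914 and 1.18 RPKM across the Tie2-Ezh2-KO group (replicates 7, 9, 11, 13 and 17). It was at 0.0932 RPKM, from 3 reads, in Vav-Ezh2-WT replicate 4 and at 0 in the other WT libraries, and at no more than 0.137 RPKM in Vav-Ezh2-KO. All Tie2-Ezh2-KO libraries stood above all others, as those of *Bmp4* did against WT. *Msx2* rose by 2.70 (SE 0.27) against WT and was higher than in Vav-Ezh2-KO by 2.48 (SE 0.28), with adjusted p-values of 9.68e-05 and 0.00026 in limma. It passed the filter of 0.2 RPKM through Tie2-Ezh2-KO libraries alone, so the filter favoured the direction of these differences. Its interaction was 2.76 (SE 0.43) with an adjusted p of 0.0156. This call was lost without Vav-Ezh2-WT replicate 4 (2.48, adjusted p = 0.0824), with the pair of libraries high in visceral endoderm genes left out (2.65, adjusted p = 0.0564) and in limma-voom on recovered reads (6.12, adjusted p = 0.205), within a range of 0.00456 to 0.205 over all alternatives that tested it.

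*Fstl3*, which encodes a follistatin-like protein that binds activins and some BMPs, lies on chromosome 10 from 79777274 to 79782630. It was at 0.546, 0.469, 0.311, 0.859 and 0.891 RPKM across the Tie2-Ezh2-KO group (replicates 7, 9, 11, 13 and 17) while Vav-Ezh2-KO replicates 1, 9, 10, 26 and 28 had 0.0906, 0.111, 0.122, 0.0890 and 0 RPKM. The knockouts did not overlap, and the difference was 1.49 (SE 0.29) with an adjusted p of 0.00907 in limma. No Vav-Ezh2-KO library passed the filter, which favoured this direction. Against WT, *Fstl3* was at 0.0374 to 0.443 RPKM. The difference in Tie2-Ezh2-KO was 1.16 (SE 0.33) and not past the threshold (adjusted p = 0.0891 in limma). It was past it without Tie2-Ezh2-WT replicate 4, a library of the pair high in visceral endoderm genes (1.38, adjusted p = 0.0394). With both libraries of the pair left out it was not (1.40, adjusted p = 0.0794). In both fits the WT libraries were at no more than 0.180 RPKM, so the filter favoured the direction. Over all alternatives that tested it, the adjusted p in limma ran from 0.0394 to 0.353.

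The most abundant ligands, receptors, Smads and inhibitors of the list did not pass the threshold in any of the 3 comparisons. Among ligands these were *Tgfb1* at a mean of 100.3 RPKM and *Gdf3* at 15.7 RPKM over the 15 libraries. Of the 8 ligands of the list tested in Tie2-Ezh2-KO against WT, 4 had a positive difference and none passed the threshold. Among the less abundant ones, *Gdf11* (0.0137 against 0.105 RPKM) and *Tgfb2* (0.0698 against 0.0926 RPKM) had lower means in Tie2-Ezh2-KO than in WT. *Bmp8a* was at 1.22 RPKM against 0.515 RPKM in WT, with all 5 libraries above all WT libraries (1.10, SE 0.35, adjusted p = 0.149 in limma). In Vav-Ezh2-KO it was at 0.853 RPKM, with 3 of 5 libraries above all WT libraries, and the knockouts differed by 0.53 (SE 0.34, adjusted p = 0.481 in limma). *Bmp8b* was at 0.499 RPKM against 0.0137 RPKM (1.44, SE 0.41, adjusted p = 0.0911 in limma), with 4 of 5 libraries above all WT libraries, and it passed the filter through Tie2-Ezh2-KO alone. *Bmp8a* and *Bmp8b* are close copies of each other, so their reads could have been split between them. The receptors were led by *Eng*, the co-receptor endoglin, at 8.24 RPKM and *Tgfbr1* at 6.11 RPKM. Among Smads, *Smad4*, the shared partner, was at 18.3 RPKM and *Smad2* at 12.5 RPKM. The inhibitors were led by *Twsg1*, a secreted modulator of BMPs, at 7.80 RPKM and *Bambi*, a decoy receptor, at 5.34 RPKM.

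Of the listed targets, *Msx2* had the highest mean over the 15 libraries, 0.435 RPKM, and *Hey1*, a repressor that BMP and Notch signals induce, the next, 0.173 RPKM. This order held in Tie2-Ezh2-KO only: *Hey1* had the higher mean in WT (0.0575 against 0.0186 RPKM) and in Vav-Ezh2-KO (0.0651 against 0.0566 RPKM). The bHLH partners were led by *Lyl1* at 43.6 RPKM and *Tcf3*, which encodes the E proteins that Id proteins bind, at 15.3 RPKM. *Tcf3* was at a mean of 14.5 RPKM in WT, 17.1 RPKM in Tie2-Ezh2-KO and 14.3 RPKM in Vav-Ezh2-KO libraries, with differences of 0.06 (SE 0.34) and -0.02 (SE 0.19) against WT. The protease *Bmp1*, which cleaves procollagen and the BMP antagonist chordin, was at 1.46 RPKM in Tie2-Ezh2-KO and 0.688 RPKM in WT libraries, a difference of 0.97 (SE 0.34) with an adjusted p of 0.212 in limma.

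**Figure D3:**
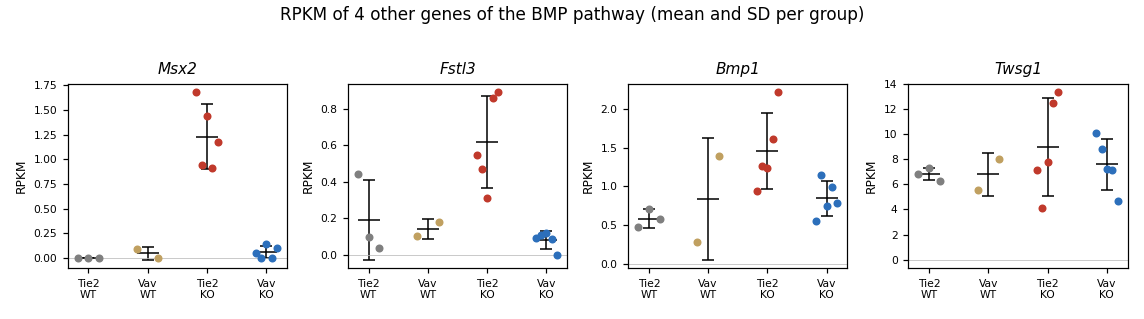
RPKM of *Msx2*, *Fstl3*, *Bmp1* and *Twsg1* on a linear axis in the 15 libraries, by group, with points for single libraries and bars for the mean and SD (n = 3, 2, 5 and 5 from left to right). *Msx2* is between 0.914 and 1.68 RPKM in Tie2-Ezh2-KO and at most 0.137 RPKM in any other library.

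The genes whose levels followed those of the 2 most abundant members most closely were found by Pearson's r of log2(RPKM + 0.2) over the 15 libraries, among 14393 other genes. For *Id1* they were *Tnfaip8* (r = 0.915), *Ascl3* (r = 0.838) and *Mrpl38* (r = 0.8286). *Tnfaip8* ran only from 34.5 to 46.3 RPKM and *Mrpl38* from 74.6 to 98.3 RPKM, so a high r does not mean a change of like size. *Ascl3* was above 0 in 6 of the 15 libraries and did not exceed 0.533 RPKM. For *Id3* they were *Srfbp1* (r = 0.915), *Tmem202* (r = 0.821) and *Stoml2* (r = 0.816), again with narrow ranges for *Srfbp1* (31.6 to 47.0 RPKM) and *Stoml2* (244 to 308 RPKM). The points share their libraries and groups, and the highest of so many values is high in any data of 15 libraries.

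Promoter sequences of 6 of the 10 genes, *Bmp4*, *Bmp6*, *Id2*, *Id3*, *Id4* and *Smad6*, were read from RefSeq on GRCm38.p6, each with 250 bases before and 50 after the start of the gene. They were searched on both strands for GGCGCC, a GC-rich sequence to which BMP Smads bind, and CAGAC, which holds the Smad box. GGCGCC was in 2 of the 6, *Id2* and *Id4*, and in 11.9% of all 32851 promoters of the same length. CAGAC was in 2 of the 6, *Id3* and *Bmp6*, and in 49.6% of all promoters. The windows of *Bmp4* and *Smad6* held neither, which says only that these letters are not in these windows. The parts of the windows of *Bmp4* and *Id2* that lie before the gene and outside annotated exons are shown because these were the genes of the set past the threshold between the knockouts, with a match to GGCGCC in capitals.
*Bmp4*, chr14:46390670-46390919, minus strand: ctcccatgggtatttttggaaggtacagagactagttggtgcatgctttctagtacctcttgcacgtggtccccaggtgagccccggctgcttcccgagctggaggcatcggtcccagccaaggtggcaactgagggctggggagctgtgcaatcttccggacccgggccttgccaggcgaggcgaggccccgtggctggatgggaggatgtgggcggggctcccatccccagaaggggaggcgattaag
*Id2*, chr12:25096254-25096342, minus strand: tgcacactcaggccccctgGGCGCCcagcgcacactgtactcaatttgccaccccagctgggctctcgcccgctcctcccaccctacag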

How the data were processed

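RNA-seq libraries of 15 yolk sacs were analysed; the submitters' processing notes name TopHat2 2.0.13 and featureCounts, with GRCm38 (mm10) as the build. The authors aligned 75-base single-end reads, counted them on RefSeq genes and deposited linear RPKM values; cDNA had been amplified with 16 cycles of PCR, so reads are not independent molecules. Reads on genes per library were recovered from the steps between RPKM values, and all 16877 genes above 0 came out whole within 0.001 read. The number of reads behind *Bmp6*, seen in 1 library, could not be fixed this way. Replicate libraries of a group differed by more than sampling noise (chi-square per gene of 16.4 to 133 over 24 pairs, where about 1 is expected of noise alone), and each counted as 1 replicate.

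Differences were computed from log2(RPKM + 0.2) by limma 3.58.1 under R 4.3.3, using eBayes with a trend. Genes entered a fit if any of its libraries exceeded 0.2 RPKM, p-values were adjusted after Benjamini and Hochberg (threshold 0.05), and the code was tested on simulated data. Changes were planted there only in genes of higher level than *Bmp4* and *Id2*, so the simulation did not cover low genes. Each knockout was compared with all 5 WT libraries. DESeq2 was not run. The libraries come from several experiments that the labels do not assign to them, so no batch term was fitted. Alternatives were pseudocounts of 1 and 0.05, no filter, a filter of 1 RPKM in 5 libraries, quantile normalization, eBayes without trend, a common median for all libraries, limma-voom on recovered reads, the corresponding WT libraries only, each library left out in turn and, added after seeing the data, the pair of libraries high in visceral endoderm genes left out.

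The genes of the set and the lists were chosen with earlier results of these data known. The text names all 10 genes of the set; of the pathway list, genes past the threshold in any two-group comparison and the 2 most abundant of each role; the 3 genes most like *Id1* and *Id3*; the most abundant gene of each marker list reported; and *Ezh2*. The result of 1 marker list was left out because it needs an item withheld for evaluation. *Bmp8a*, *Bmp8b*, *Gdf11*, *Tgfb2* and other marker genes were named after their values were seen. Gene positions and promoters are those of RefSeq on GRCm38.p6, and exons those of GENCODE.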

Additional observations from a re-analysis of the deposited data

Results flagged for a closer look

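In groups of 5 libraries, a library was picked out when its gap to the nearest other library was more than 0.71 of the group's range (Dixon's criterion). Of 30 such groups of the 10 genes, *Msx2* and *Fstl3*, 5 held such a library. A group with 1 library above 0 passes by construction, as *Bmp6* and *Msx2* below did. *Id2* was at 9.06 RPKM in Tie2-Ezh2-WT replicate 4 and at 3.33 RPKM or less in the other WT libraries. *Id4* was at 0.749 RPKM in Tie2-Ezh2-KO replicate 17, with the next library of its group at 0.189 RPKM. *Bmp6* was at 0.155 RPKM in Tie2-Ezh2-KO replicate 13 and at 0 elsewhere. *Msx2* was at 0.0932 RPKM in Vav-Ezh2-WT replicate 4 and at 0 in the other WT libraries. *Fstl3* was at 0 in Vav-Ezh2-KO replicate 28 and between 0.0890 and 0.122 RPKM in the others of that group.

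The interaction of *Msx2* was 2.76 on the log2(RPKM + 0.2) scale, with an adjusted p of 0.0156 in limma. *Msx2* passed the filter through Tie2-Ezh2-KO libraries alone, which favoured a positive value. The call was lost in limma-voom (6.12, adjusted p = 0.205) and without Vav-Ezh2-WT replicate 4 (2.48, adjusted p = 0.0824). It was also lost without the pair of libraries high in visceral endoderm genes (2.65, adjusted p = 0.0564). Over all alternatives that tested it, the adjusted p in limma ran from 0.00456 to 0.205.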

How the results depend on the processing

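For the 10 genes, 33 differences were computed. Under alternatives other than leaving out a library, 272 of 276 recomputed differences kept their direction and their side of the threshold, 3 lost the call and 1 changed sign. With 1 library left out at a time, 353 of 369 kept both, 6 lost the call and 10 changed sign. No paired analysis was possible because each library came from a different yolk sac and the labels do not pair libraries between groups.

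In Tie2-Ezh2-KO against WT, the number of the 10 genes past the threshold was 1, and it was 0 with the filter above 1 RPKM in at least 5 libraries, where *Bmp4* was not tested. *Bmp4* kept its call in 10 of 10 fits with a library left out, with differences of 2.83 to 3.50 (adjusted p in limma of 0.000337 to 0.00798), and in the 9 other alternatives that tested it, with differences of 1.81 to 4.25. Between the knockouts, the number past the threshold was 2, and it was 1 with no filter, with eBayes without trend and in limma-voom on recovered reads; with a library left out it was 1 to 2. The gene that lost its call was *Bmp4*, with adjusted p-values in limma of 0.0738 with no filter, 0.0638 without trend and 0.0790 in limma-voom, where its difference was 2.48, 2.48 and 3.88, against 2.48.

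Of the pathway list, 1 gene was past the threshold in Tie2-Ezh2-KO against WT; this was 0 with the filter above 1 RPKM and 1 to 2 with a library left out (2 without Tie2-Ezh2-WT replicate 4 or Tie2-Ezh2-KO replicate 17). Between the knockouts it was 2, and it was 0 with that filter and 2 to 3 with a library left out.

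The sign of *Id3* in the interaction turned from -0.35 to 0.13 in limma-voom. *Ezh2* in Vav-Ezh2-KO against WT turned from -0.02 to 0.0010 with quantile normalization and to 0.0147 with a common median. With a library left out, differences that changed sign ran as follows. *Id1* ran from -0.33 to 0.0304 in Tie2-Ezh2-KO against WT, from -0.0007 to 0.36 between the knockouts and from -0.22 to 0.69 in the interaction. *Id3* ran from -1.12 to 0.10 in Tie2-Ezh2-KO against WT and from -0.95 to 0.32 in the interaction. *Smad6* ran from -0.82 to 0.17 in the interaction, *Smad7* from -0.24 to 0.0259 in Vav-Ezh2-KO against WT, and *Ezh2* from -0.10 to 0.0151 in that comparison.

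Over all genes, the number past the threshold ran from 187 to 466 in Tie2-Ezh2-KO against WT, from 320 (without Vav-Ezh2-KO replicate 28) to 969 (without Tie2-Ezh2-KO replicate 9) between the knockouts, from 2 to 32 in the interaction and from 0 to 2 in Vav-Ezh2-KO against WT. Between the knockouts, 372 genes were higher and 123 lower in Tie2-Ezh2-KO, against 334 and 191 with quantile normalization. The setting without the pair of libraries high in visceral endoderm genes was chosen after seeing the data.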
